A study of Mus musculus with 2669 samples.

Results

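Among 856 single cells from the caudal ganglionic eminence (CGE) of mouse embryos, 55 were young neurons with Nr2f2 and with little or no Lhx6. A cell was kept with at least 1000 detected genes and 50000 counts, which 854 of the CGE cells reached. It was taken as a neuron when Tubb3 and Dcx, a neuronal tubulin and a microtubule-binding protein of migrating neurons, each reached 50 CPM (a cell's count of a gene scaled to a common total), while Top2a and Mki67, markers of dividing cells, each stayed below 10 CPM. Of the kept cells, 335 failed on Tubb3 or Dcx and 363 on Top2a or Mki67, which left 156 neurons. The 55 members were then chosen by their measured Nr2f2 and Lhx6: they had Nr2f2 at 20 CPM or above and Lhx6 below 20 CPM. The other 101 CGE neurons were 50 with both genes below 20 CPM (Nr2f2-low Lhx6-low) and 51 with Lhx6 at 20 CPM or above (Lhx6-positive), of which 16 also had Nr2f2.

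The series holds 2669 cells from 37 chips of a microfluidic capture system, each cell with its own full-length, poly-A primed library. The embryos came from timed pregnant CD1 mice at E12.5 or E14.5, counted in embryonic days, with no transgene, treatment or sort named. The CGE was captured on 6 chips at E12.5 and 5 chips at E14.5, and the dorsal and ventral parts of the medial ganglionic eminence (dMGE and vMGE), used here as regions for comparison, on 6 and 7 chips at E12.5 and 8 and 5 chips at E14.5. The labels tie no cell to an animal or a litter, so the chip served as the replicate, and p-values measure the spread between chips, which may be technical.

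The CGE is a transient zone of dividing cells under the embryonic cortex, and its neurons migrate to the cortex, amygdala and other forebrain targets. Nr2f2, also called COUP-TFII, is an orphan nuclear receptor enriched in this zone and in many of the inhibitory interneurons it makes. Lhx6 is a LIM-homeodomain factor that neurons of the MGE switch on as they leave the cell cycle, and Nr2f2 with no Lhx6 is a common first sorting of CGE-derived from MGE-derived neurons.

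Pooled over chips and ages, the members held a median of 1004600 counts and 3304 detected genes per cell, against 906134 counts and 3344 genes in the other CGE neurons. Mitochondrially encoded genes took a median of 2.25% and 1.80% of counts, and chip 175 stood apart with a median of 5.36% over all its cells. On the 8 chips with at least 3 cells of each class, members exceeded the other neurons by 108 detected genes on average (higher on 7 of 8 chips, exact paired permutation test of chip medians, two-sided p = 0.0859). Without chip 161 the difference was 147.6 genes with p = 0.0156. With every cell thinned to 50000 counts it was 106.6 genes on 8 of 8 chips, with p = 0.00781, the smallest this test can give. Counts per cell ran against the pooled medians on these 8 chips. Members differed by -207923 counts on average (higher on 2 of 8 chips, exact paired permutation p = 0.117). Their mitochondrial share differed by -0.036 percentage points (higher on 4 of 8 chips, exact paired permutation p = 0.945). Counts of Xist, the RNA of the inactive X chromosome, and of Y-linked genes were found in the same cell in 16 of the 55 members, 6 of the 50 Nr2f2-low Lhx6-low neurons and 13 of the 51 Lhx6-positive neurons. No doublet caller was run, and results that rest on such cells are given with and without them where the call or direction differed. The test of detected genes per cell was not repeated without such cells. Of the 2669 cells, 0 had counts identical to those of another cell.

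The thresholds fixed the levels of the genes they used, so those are given as a description. Nr2f2 ranged from 20.6 to 2001 CPM over the members with a median of 178 CPM. At E12.5 the median was 198.5 CPM and at E14.5 it was 74.2 CPM. The 3 members nearest the Nr2f2 threshold had 20.6, 21.7 and 28.6 CPM, and the nearest Lhx6-low neurons outside it had 19.0, 15.2 and 14.6 CPM. On the Lhx6 side the nearest members had 18.1, 8.02 and 7.58 CPM, and the nearest neurons outside had 30.3, 59.9 and 112 CPM. Most cells thus lay well clear of both thresholds, with 9 members between 20 and 50 CPM of Nr2f2 and 10 of the Nr2f2-low Lhx6-low neurons between 5 and 20 CPM. Lhx6 was at exactly 0 in 33 of the 55 members. Tubb3 had a median of 1352 CPM and Dcx of 1108 CPM in the members.

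**Figure D1:**
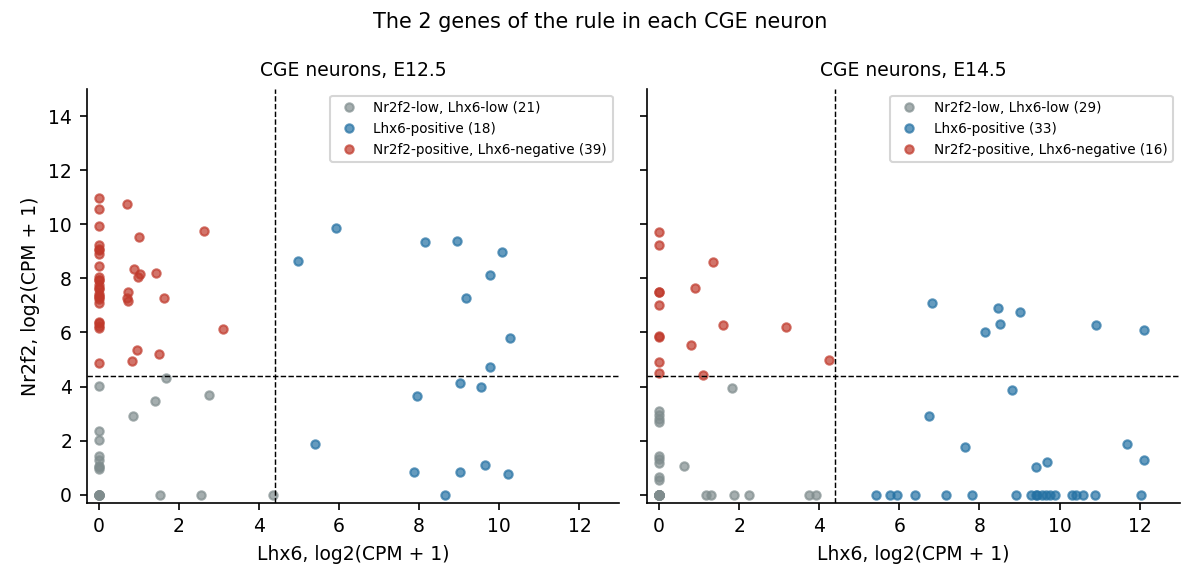
Each point is a CGE neuron placed by its Lhx6 level (horizontal) and its Nr2f2 level (vertical), both as log2(CPM + 1), at E12.5 (left) and E14.5 (right), with dashed lines at 20 CPM. The members, 39 at E12.5 and 16 at E14.5, fill the upper left, and the highest Nr2f2 levels among Lhx6-positive neurons are at E12.5.

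Nr2f2-positive Lhx6-negative cells made up a smaller share of CGE neurons at E14.5 than at E12.5. They were 39 of 78 neurons at E12.5 (50%, exact 95% interval 38.5 to 61.5%) and 16 of 78 at E14.5 (20.5%, 12.2 to 31.2%). Such intervals, here and below, cover counting error only. Among chips with at least 5 neurons, members were 36.4, 40, 55.6 and 61.9% of neurons on the E12.5 chips 175, 182, 186 and 187. On the E14.5 chips 160, 161, 162, 189-2 and 190-2 they were 15.4, 27.3, 13.3, 33.3 and 26.7%. Every E14.5 chip lay below every E12.5 chip. The means were 23.2% ± 8.51 (SD, n = 5) and 48.5% ± 12.2 (SD, n = 4), a difference of -25.3 percentage points (two-sided exact permutation test, p = 0.0159, the smallest this design allows, and 0.0159 after adjustment over the 2 share tests). With cells of at least 2000 genes and 200000 counts, 3 chips were left per age and the difference was -26.6 points with p = 0.1, the smallest that 3 against 3 can give.

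Other values moved with age on the same chips. Nr2f2 reached 20 CPM in 46.7 to 87.3% of the CGE cells that were not rule neurons at E12.5 (median 69.9% over 6 chips) and in 18.8 to 37.5% at E14.5 (median 35.8% over 5 chips), with no overlap. All Nr2f2-positive neurons together, with or without Lhx6, were 60.3% ± 3.48 (SD, n = 4) of CGE neurons at E12.5 and 32.3% ± 7.21 (SD, n = 5) at E14.5, while the Lhx6-positive share was 19.9% ± 23.2 and 39.4% ± 16.4. Members had a median of 3326 detected genes at E12.5 and 2805.5 at E14.5. The drop in share was as large when the rule was applied to cells thinned to 50000 counts, at -35.5 points (exact permutation p = 0.0238). Without cells that held Xist and Y-linked counts it was -20.2 points (exact permutation p = 0.0476). The part that the values above have in the result was not tested.

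The same thresholds found almost no cells in the MGE. At E12.5 the dMGE gave 0 of 39 neurons, which allows a share of up to 7.69%, and the vMGE gave 1 of 22. The MGE chips with at least 5 neurons had shares of 0% on 4 chips and 8.33% on chip 185. The CGE mean of 48.5% ± 12.2 (SD, n = 4) exceeded the MGE mean of 1.67% ± 3.73 (SD, n = 5) by 46.8 points (two-sided exact permutation p = 0.0159, the smallest possible, adjusted 0.0159). Nr2f2 itself was found in MGE neurons, where 16 of the 17 Nr2f2-positive neurons at E12.5 also carried Lhx6. Over the E12.5 chips with at least 5 neurons, Lhx6 was in 74.3% of dMGE, 79.2% of vMGE and 19.9% of CGE neurons. Nr2f2 was in 26.7, 45.8 and 60.3%. These are means of 3 dMGE, 2 vMGE and 4 CGE chips. The 2 vMGE chips lay far apart, with Lhx6 at 58.3 and 100% and Nr2f2 at 25 and 66.7%. The 2 thresholds are themselves a common sorting of CGE from MGE neurons, so the share and its p-value are no independent measure of region. At E14.5, 2 of 80 dMGE neurons and 1 of 52 vMGE neurons passed the rule. No comparison of gene levels between CGE and MGE members could be made with so few cells.

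**Figure D2:**
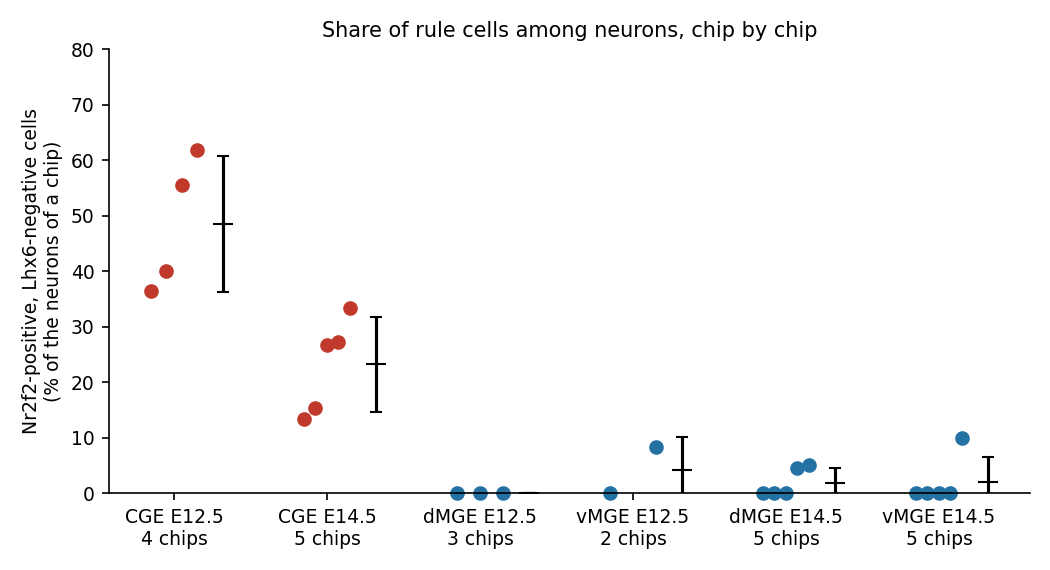
Share of the neurons on each chip that were Nr2f2-positive and Lhx6-negative, in percent, by region and age, for chips with at least 5 neurons. Points are chips and bars are means with SD. The E12.5 CGE chips lie between 36.4 and 61.9%, the E14.5 CGE chips between 13.3 and 33.3%, and no MGE chip exceeds 10%.

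Transcription factors linked to the CGE lineage were found in members at widely different rates. Nr2f1, the close paralog of Nr2f2 also known as COUP-TFI, reached 20 CPM in 45 of the 55 members (81.8%, 69.1 to 90.9%), against 52% of Nr2f2-low Lhx6-low neurons (37.4 to 66.3%) and 66.7% of Lhx6-positive neurons (52.1 to 79.2%). With cells thinned to 50000 counts the shares were 85.5, 62 and 68.6%. The classes differ in their mix of ages, with 39 of 55 members, 21 of 50 Nr2f2-low Lhx6-low and 18 of 51 Lhx6-positive neurons from E12.5, and Nr2f1 was more frequent at E12.5 in each class. At E12.5 alone it was found in 87.2% of members, 76.2% of Nr2f2-low Lhx6-low neurons and 100% of Lhx6-positive neurons, and at E14.5 in 68.8, 34.5 and 48.5%. Members thus had the highest share at E14.5 and not at E12.5.

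Npas3, a bHLH-PAS factor of forebrain interneurons, was found in 51.3% of members, 33.3% of Nr2f2-low Lhx6-low and 33.3% of Lhx6-positive neurons at E12.5, and in 31.2, 17.2 and 30.3% at E14.5. Prox1, a homeodomain factor kept by CGE-derived interneurons into adulthood, was found in 23.1, 14.3 and 27.8% of the same classes at E12.5 and in 18.8, 3.45 and 0% at E14.5. Sp8, a zinc-finger factor of CGE and olfactory interneurons, was found in 25.6, 9.52 and 0% at E12.5 and in 6.25, 17.2 and 12.1% at E14.5, so the order of the classes differed between the ages. Its relative Sp9 was found over both ages in 54.5% of members (40.5 to 68.0%), 68% of Nr2f2-low Lhx6-low neurons and 82.4% of Lhx6-positive neurons (69.1 to 91.6%). For Prox1, Sp8 and Npas3 the intervals of the classes over both ages overlapped. Cells of a chip are not replicates, so intervals over cells, here and below, describe the classes and do not test them.

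Prox1 was at 20 CPM or above in 12 members and Sp8 in 11, with 3 cells in both sets, so that 20 of the 55 members carried at least 1 of them. Of the 12 Prox1 cells, 11 also carried Nr2f1, and of the 11 Sp8 cells, 10 did. Several markers of later CGE interneuron types did not reach the level used here. Htr3a, Vip, Calb2, Cck and Reln reached 20 CPM in 0 of 55 members, which allows a share of up to 5.45% for each. That limit is 3 divided by the number of cells and not an exact interval. Adarb2, a lasting marker of CGE-derived interneurons, was found in 10.9% of members and Npas1 in 7.27%. Id2, another gene of the CGE lineage list, was present on some chips. With member counts added up per chip, Id2 was 0 to 294 CPM over 5 chips at E12.5. At E14.5 it was 0 to 819.6 CPM over 4 chips. Not every gene of that list is given here. A minority of members thus carried Prox1 or Sp8, and the name of the group is used here for its rule alone.

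The tests of gene levels used sums, in which the counts of a class on a chip were added up and divided by their total to give a CPM per chip. The classes were compared on the same chip with edgeR's quasi-likelihood test, with the chip as a block and Benjamini-Hochberg adjustment over all genes tested. The other genes were measured in the same cells that the thresholds sorted. Members against all other CGE neurons used 8 chips, 48 members and 88 other neurons, and 0 of 5821 genes passed an adjusted p of 0.05, or 0%. At an unadjusted p of 0.05, 91 genes passed, or 1.56%. No gene passed with limma on mean log2(CPM + 1), and DESeq2's Wald test called 175 genes, or 3.01%, with 36 higher (0.618%) and 139 lower (2.39%) in members. On counts simulated at the spread of these sums, DESeq2 called 170 unchanged genes of 4827 tested in this comparison. In the comparisons below it called 71 to 187 unchanged genes, so its calls are given as counts only. Differences below are therefore values that did not pass edgeR's test, and the adjusted p of each gene named was 0.9999.

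Of the 20 CGE lineage genes, 7 had enough counts to be tested, 0 passed, and 4 of the 7 were above 0 with a median log2 difference of 0.89, beside 37.2% of all genes above 0 and a median of -0.42. Nr2f1 in members was 1829, 686, 422, 495 and 733 CPM on the E12.5 chips 175, 179, 182, 186 and 187. It was 208, 172, 586 and 92.5 CPM on the E14.5 chips 161, 162, 189-2 and 190-2. Chip 175 stood well above the rest, and only the E14.5 chip 189-2 reached into the E12.5 range. Over the 8 paired chips the lowest, median and highest values were 92.5, 458 and 1829 CPM in members and 21.6, 284 and 1318 CPM in other neurons. Members were higher on 6 of 8 chips, with a log2 difference of 0.89 (SE 0.81, edgeR p = 0.288), and the class ranges overlapped broadly. Against Nr2f2-low Lhx6-low neurons alone, members were higher on 7 of 8 chips by 1.42 (SE 0.85, edgeR p = 0.116).

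Other CGE factors varied widely between chips in both classes. Of the 7 tested CGE lineage genes, 3 were below 0, and of those Sp9 alone is given here. Npas3 in members had a lowest, median and highest value of 0, 70.7 and 432 CPM against 0, 33.6 and 94.2 CPM in other neurons, higher on 6 of 8 chips (log2 difference 1.31, SE 1.55). Sp8 had 0, 34.5 and 487 CPM against 0.239, 4.33 and 247.5 CPM, higher on 5 of 8 chips (1.57, SE 2.97). Prox1 had 0, 31.3 and 313 CPM against 0, 15.6 and 146 CPM, and was higher on 3 chips and at 0 in both classes on 3 others (0.91, SE 2.30). The direction for Prox1 and Sp8 turned with the threshold on Nr2f2 or with the ages used. Without chip 162, Prox1 was at -0.02, and without chip 187 at -0.16. Sp9, a regulator of interneuron and striatal development, had 0.959, 50.6 and 269 CPM in members against 11.5, 267 and 633 CPM, and was lower in members on 6 of 8 chips (-1.53, SE 1.32).

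**Figure D3:**
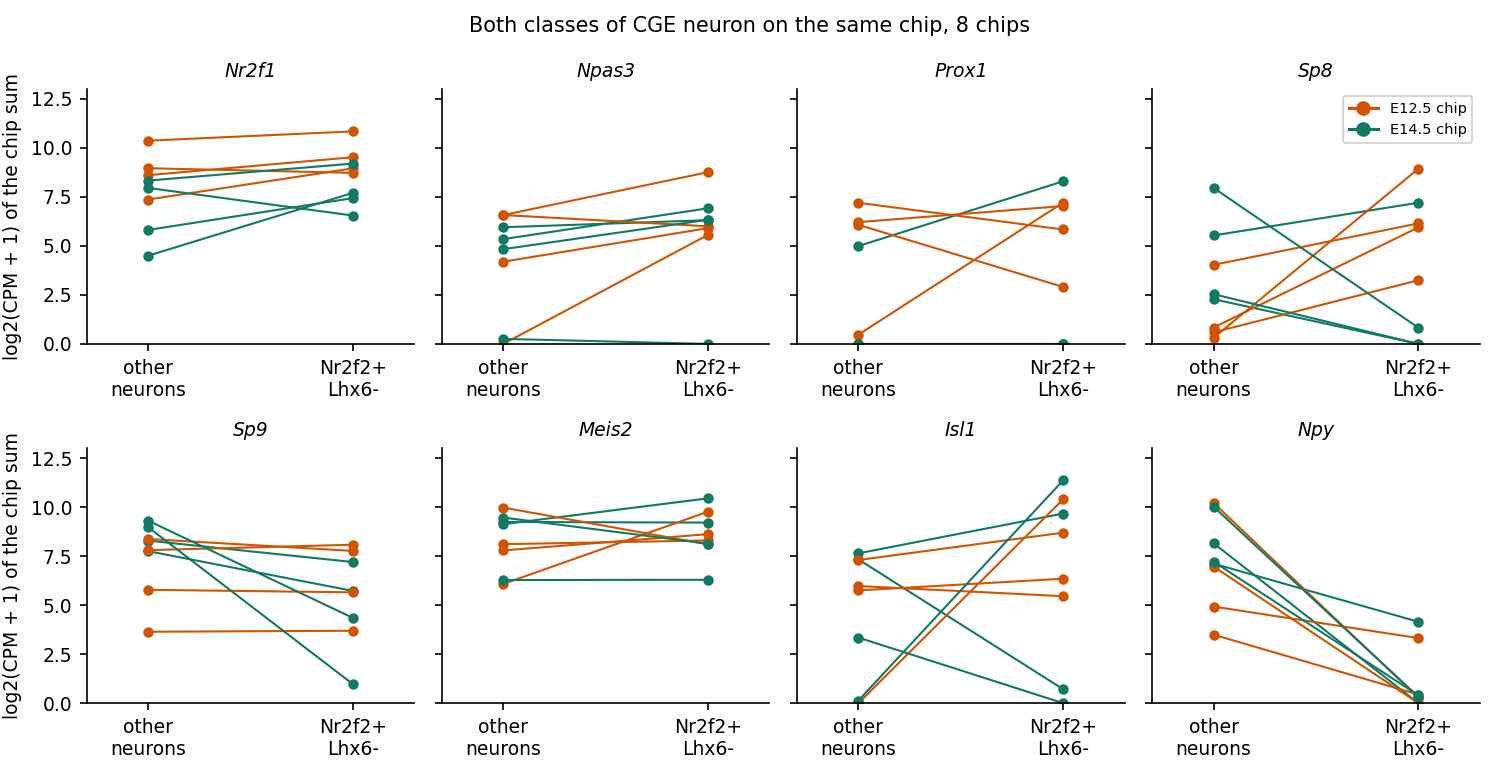
Level of 8 genes, as log2(CPM + 1) of the summed counts of a class on a chip, in the other CGE neurons and in the Nr2f2-positive Lhx6-negative neurons of the same chip. Each line is 1 of 8 chips, coloured by age. Nr2f1 runs upward on 6 chips and Npy downward on all 8.

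Genes of the MGE lineage were mostly lower in members, as far as the values go. Of the 20 listed, 14 were tested and 0 passed, with 1 of the 14 above 0 and a median log2 difference of -2.61. That median was -0.40, with 3 of 14 above 0, when mean log2(CPM + 1) per cell was fitted with limma. Npy, the neuropeptide Y gene of many Lhx6-positive interneurons, had a lowest, median and highest value of 0, 0.289 and 16.8 CPM in members and 10.3, 142 and 1186 CPM in other neurons. Members were lower on 8 of 8 chips, and only chip 161 among the members exceeded the lowest value of the other neurons (log2 difference -9.03, SE 2.33, unadjusted edgeR p = 0.00128). The size of such a fit depends on the prior count, since 2 member sums were at 0.

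Shares of cells for MGE lineage genes are given as a description, since cells of a chip are not replicates and the classes differ in their ages. Npy reached 20 CPM in 7.27% of members, 12% of Nr2f2-low Lhx6-low and 43.1% of Lhx6-positive neurons. Maf, a factor of the same lineage, was found in 16.4, 16 and 54.9%, and Nxph1, which encodes a neurexin ligand, in 10.9, 4 and 45.1%. Erbb4, the neuregulin receptor of migrating interneurons, was found in 12.7, 14 and 52.9%, and Ackr3, a scavenging receptor for the chemokine Cxcl12, in 18.2, 18 and 54.9%. The difference from Lhx6-positive neurons did not pass the test over chips for any of the 5. Summed over the 5 chips of that comparison, Erbb4 had a log2 difference of -1.50 (SE 2.39, edgeR p = 0.544) and was higher in members on 2 of 5 chips. Maf (-4.13, SE 3.17) and Nxph1 (-5.30, SE 4.66) were each also higher in members on 2 chips, and Ackr3 (-4.08, SE 2.88) on 1. The gap in shares was wider at E14.5, where Lhx6-positive neurons had shares of 54.5 to 69.7% for the 5 genes and members at most 25%, than at E12.5, where the classes had 22.2 to 33.3% and 5.13 to 17.9%, a contrast between ages that was not tested. Nkx2-1, the factor that specifies the MGE, was found in 9.09% of members and 31.4% of Lhx6-positive neurons. Sox6, a factor that acts after Lhx6 in the MGE, was an exception, with 34.5% of members, 12% of Nr2f2-low Lhx6-low neurons and 49% of Lhx6-positive neurons. Lhx6 defines these classes, so genes that accompany it in single cells are no independent measure.

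Genes of the striatal and lateral ganglionic eminence list were found in members at widely different rates. Meis2, a TALE homeodomain factor of striatal and amygdala neurons, was found in 69.1% of members, 72% of Nr2f2-low Lhx6-low neurons and 43.1% of Lhx6-positive neurons. Bcl11b, also called Ctip2, was found in 63.6, 68 and 82.4%, and Foxp1 in 23.6, 24 and 17.6%. Members led in none of Meis2, Bcl11b and Foxp1. Isl1, a LIM-homeodomain factor of striatal and cholinergic neurons, was found in 20% of members (10.4 to 33.0%), and Nr2f1 and Meis2 were found together in 34 members. At least 1 of Isl1, Ebf1 and Foxp1 was carried by 21 of 55 members, and 7 members combined 1 of these with Prox1 or Sp8. A further 18 members carried none of Prox1, Sp8, Npas1, Isl1, Ebf1 or Foxp1.

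Of the 22 striatal genes, 10 were tested against all other neurons and 0 passed, with 4 of the 10 above 0 and a median log2 difference of -1.12. With limma on mean log2(CPM + 1), the median was 0.13 with 6 of 10 above 0, so the list had the opposite sign under that fit. The cause was not tested. Meis2 had a lowest, median and highest value of 77.3, 353 and 1394 CPM in members and 66.6, 416 and 1005 CPM in other neurons (log2 difference 0.25, SE 0.88). The classes could not be told apart for Meis2, and without chip 186 the value was -0.18. Isl1 in members was spread from 0 to 2638 CPM over the chips against 0 to 198 CPM (0.82, SE 2.14), and without cells holding Xist and Y-linked counts its difference turned to -0.60. Six3, a homeodomain factor of the ventral forebrain, had 0, 2.36 and 375 CPM in members against 13.2, 80 and 266 CPM (-5.69, SE 2.66, unadjusted edgeR p = 0.0479). It was at 20 CPM or above in 16.4% of members against 44% of Nr2f2-low Lhx6-low neurons, with 17.9 and 38.1% at E12.5.

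Most members carried genes of inhibitory neurons. Gad1 or Gad2, the enzymes of GABA synthesis, reached 20 CPM in 49 of 55 members, and at least 1 of the homeodomain genes Dlx1, Dlx2, Dlx5 and Dlx6 in 53, leaving 2 members with none of the 6. Gad2 was found in 80% of members, 82% of Nr2f2-low Lhx6-low neurons and 76.5% of Lhx6-positive neurons, and Dlx1 in 85.5, 58 and 88.2%. The Dlx1 shares of the 3 classes kept this order within each age, at 87.2, 61.9 and 88.9% at E12.5 and 81.2, 55.2 and 87.9% at E14.5, with the Nr2f2-low Lhx6-low class lowest. Slc32a1, the vesicular GABA transporter, was found in 9.09% of members.

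All 10 genes of the GABAergic list were tested, 0 passed, and 5 were above 0 with a median log2 difference of 0.00. Gad2 in members was 1217, 266, 1304, 1010 and 1057 CPM on the E12.5 chips 175, 179, 182, 186 and 187, and 842, 1014, 0 and 1099 CPM on the E14.5 chips 161, 162, 189-2 and 190-2. All but chips 179 and 189-2 thus held Gad2 within a narrow range.

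**Figure D4:**
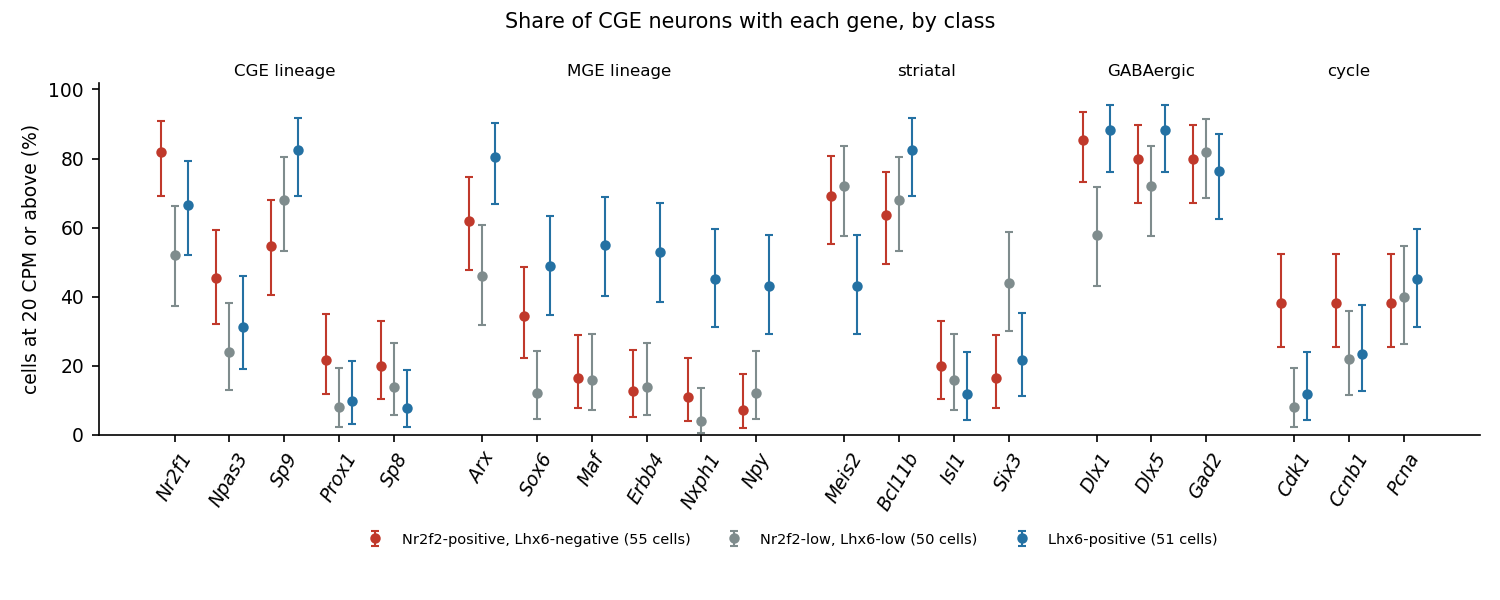
Percent of cells at 20 CPM or above for genes in 5 groups, in the 55 Nr2f2-positive Lhx6-negative, 50 Nr2f2-low Lhx6-low and 51 Lhx6-positive CGE neurons. Points are shares over all cells of a class and bars are exact 95% binomial intervals. Ages are pooled. Cdk1 is highest in the Nr2f2-positive Lhx6-negative class, and Npy, Maf, Erbb4 and Nxph1 in the Lhx6-positive class.

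Genes of the cell cycle other than the thresholds' Top2a and Mki67 were found in many members. Cdk1, the kinase that drives entry into mitosis, reached 20 CPM in 21 of 55 members (38.2%, 25.4 to 52.3%), against 8% of Nr2f2-low Lhx6-low neurons (2.22 to 19.2%) and 11.8% of Lhx6-positive neurons (4.44 to 23.9%). The shares were 40, 10 and 15.7% in cells thinned to 50000 counts, and 35.9% in members without cells that held Xist and Y-linked counts. In this description over cells, the higher share of members was seen at E12.5. Cdk1 was found there in 19 of 39 members (48.7%), 0 of 21 Nr2f2-low Lhx6-low neurons (up to 14.3%) and 22.2% of Lhx6-positive neurons. The limit of 14.3% is 3 divided by the number of cells and not an exact interval. At E14.5 Cdk1 was found in 2 of 16 members, 13.8% of Nr2f2-low Lhx6-low and 6.06% of Lhx6-positive neurons. The cyclins Ccnb1 and Ccna2 were found at E12.5 in 46.2 and 30.8% of members, 23.8 and 9.52% of Nr2f2-low Lhx6-low neurons, and 33.3 and 5.56% of Lhx6-positive neurons. Pcna, a replication clamp, was found in 38.5, 28.6 and 61.1% of the classes at that age, where members did not lead. At least 3 of the 20 cell cycle genes were on in 76.9% of E12.5 members (60.7 to 88.9%), 61.9% of E12.5 Nr2f2-low Lhx6-low neurons (38.4 to 81.9%) and 66.7% of E12.5 Lhx6-positive neurons (41.0 to 86.7%), with overlapping intervals.

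Summed per chip, Cdk1 in members was 38.6, 470, 49.3, 226 and 228 CPM on the E12.5 chips 175, 179, 182, 186 and 187, and 192, 0.318, 0 and 0 CPM on the E14.5 chips 161, 162, 189-2 and 190-2. The 3 low E14.5 chips lay below every E12.5 chip. On the 8 paired chips members were higher on 4, with a log2 difference of 0.62 (SE 2.26, edgeR p = 0.787), which turned to -0.14 without chip 186 and -0.13 without chip 187. Of the 20 cell cycle genes, 15 were tested and 0 passed, with 8 above 0 and a median of 0.48. Sox2, a factor of neural progenitors that some young interneurons keep, was found in 67.3% of members and 70.6% of Lhx6-positive neurons, and Insm1, a factor of newly born neurons, in 43.6, 14.3 and 44.4% of the 3 classes at E12.5.

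Genes of migration and guidance included several receptors of young neurons. Epha5, an ephrin receptor, was found in 71.8% of members, 47.6% of Nr2f2-low Lhx6-low and 88.9% of Lhx6-positive neurons at E12.5, and in 68.8, 48.3 and 97.0% at E14.5. Summed per chip, Epha5 was higher in members than in Lhx6-positive neurons on 1 of 5 chips (log2 difference -0.96, SE 0.95) and its relative Epha4 on 3 of 5 (-0.79, SE 0.90). Of the 30 migration and guidance genes, 15 were tested, 0 passed, and 3 were above 0 with a median log2 difference of -1.40 against all other neurons. Among other nuclear receptors, the family to which Nr2f2 belongs, 7 of 25 were tested and 0 passed, with 5 above 0 and a median of 0.76. Nr2e1, the orphan receptor Tlx of neural progenitors, was found in 20.5% of members, 9.52% of Nr2f2-low Lhx6-low and 33.3% of Lhx6-positive neurons at E12.5, and in 25, 0 and 6.06% at E14.5. Thra, a thyroid hormone receptor, was found in 47.3, 36 and 51.0%. The pan-neuronal list had 22 genes tested, 0 passed and 8 above 0 (median -0.17), the receptor and channel list 6, 0 and 3 (-0.49), the progenitor list 12, 0 and 4 (-0.22), and the immediate early list 6, 0 and 2 (-0.95).

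Marker lists of blood vessel, immune, glial precursor and pallial cells had low sums in members. The 7 endothelial genes summed to 0 CPM on all 9 chips with member sums. The summed level reached at most 0.636 CPM for microglia, 0.320 CPM for oligodendrocyte precursors, 1.27 CPM for pericytes and fibroblasts, 16.4 CPM for pallial excitatory neurons and 68.1 CPM for red blood cells. Progenitor and radial glia genes were not low, with sums of 601 to 4531 CPM in members (median 1921) and 1011 to 3008 CPM in Nr2f2-low Lhx6-low neurons (median 2190). In the Nr2f2-low Lhx6-low neurons the pallial genes summed to 4014 CPM on the E12.5 chip 175 and 1512 CPM on the E14.5 chip 160, and to at most 7.88 CPM on the other chips. Chip 175 is among the paired chips, and without it 0 genes passed edgeR's test in each class comparison as well. The CGE lineage genes summed to between 517 and 3076 CPM in members (median 1403) and between 243 and 1376 CPM in Nr2f2-low Lhx6-low neurons (median 817). In Lhx6-positive neurons they summed to between 463.5 and 3001 CPM over 6 chips (median 881). The medians of members and Nr2f2-low Lhx6-low neurons were 1403 and 729 CPM at E12.5, and 1213 and 1017 CPM at E14.5.

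The genes with the smallest p-values against all other neurons were scattered over functions. Neb, which encodes the muscle filament protein nebulin, had a lowest, median and highest value of 0, 0.139 and 14.46 CPM in members against 1.55, 116 and 880 CPM (log2 difference -9.55, SE 2.15, unadjusted edgeR p = 0.000389). Ier5, an immediate early gene, had 0, 0 and 3.19 CPM against 0, 33.5 and 112 CPM, with 0 of 55 members at 20 CPM or above. Neither gene was higher in members on any of the 8 chips. In the other direction Malat1, an abundant nuclear long non-coding RNA, had 13790, 27070 and 53180 CPM in members against 11920, 19430 and 39160 CPM, higher on 7 of 8 chips by 0.28 (SE 0.10, unadjusted edgeR p = 0.0131). Lrpprc, a mitochondrial RNA-binding protein, had 0, 151 and 442 CPM against 0, 0.227 and 103 CPM, and Gabpa, an ETS transcription factor, had 0, 124 and 707 CPM against 0, 0.0444 and 101 CPM. Each was higher in members on 6 of 8 chips.

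The comparison with Nr2f2-low Lhx6-low neurons used 8 chips, 48 members and 46 other cells. That class is defined by levels below 20 CPM, and 23 of its 50 cells had some Nr2f2, while Lhx6 was at 0 in 35. It shares its member sums with the first comparison. With edgeR 0 of 4788 genes passed, or 0%, and 70 had an unadjusted p under 0.05, or 1.46%. limma called 0 and DESeq2 called 173, or 3.76%, with 106 higher (2.3%) and 67 lower (1.46%) in members. Of the CGE lineage genes 5 were tested and 4 were above 0, with a median log2 difference of 2.16 beside 0.02 over all genes. MGE lineage genes had 2 of 9 above 0 (median -0.37) and striatal genes 3 of 10 (-1.18).

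Lrp8, a receptor for reelin in migrating neurons, was higher in members on 8 of 8 chips of that comparison. Its lowest, median and highest values were 0.258, 197 and 1059 CPM in members and 0, 2.25 and 53.5 CPM in Nr2f2-low Lhx6-low neurons (5.31, SE 1.67, unadjusted edgeR p = 0.00586). It reached 20 CPM in 41.0% of members, 19.0% of Nr2f2-low Lhx6-low and 61.1% of Lhx6-positive neurons at E12.5, and in 43.8, 20.7 and 27.3% at E14.5. Mapk8ip2, a scaffold of the JNK pathway, was higher on 7 of 8 chips, with 0, 29.7 and 272 CPM against 0, 0.149 and 17.7 CPM. Ola1, an Obg-like ATPase, was lower on all 8, with 0, 3.10 and 82.5 CPM against 9.49, 190 and 699 CPM (-6.00, SE 2.29). The ranges overlapped for each of these genes, and the adjusted p of each gene named in this comparison was 1.

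Against Lhx6-positive CGE neurons, 5 chips had at least 3 cells of both classes, with 27 members and 40 Lhx6-positive cells. With edgeR 0 of 6326 genes passed, or 0%, and 90 had an unadjusted p under 0.05, or 1.42%. limma called 0 and DESeq2 called 247, or 3.98%, with 55 higher (0.887%) and 192 lower (3.1%) in members. Of the MGE lineage genes 12 were tested and 1 was above 0, with a median log2 difference of -4.10 beside -0.34 over all genes. CGE lineage genes had 4 of 6 above 0 (median 0.63), migration and guidance genes 2 of 16 (-1.92) and receptor and channel genes 1 of 8 (-1.95).

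Npy was 0.357, 8.98, 16.8, 0 and 0.258 CPM in the members of chips 175, 182, 161, 162 and 190-2. In the Lhx6-positive neurons of the same chips it was 18.8, 39.2, 245, 497.5 and 782 CPM. Every Lhx6-positive sum exceeded every member sum (log2 difference -6.63, SE 2.42, unadjusted edgeR p = 0.0207). Sp9 was 269, 217, 51.9, 146 and 19.4 CPM in members and 342, 371, 179.5, 350 and 124 CPM in Lhx6-positive neurons, lower on all 5 chips with overlapping ranges (-1.45, SE 1.13). Mef2c, a factor of maturing MGE interneurons, was 10, 11.04, 12.9, 33.4 and 6.20 CPM in members and 1.09, 149.5, 303, 195.5 and 48.6 CPM in Lhx6-positive neurons, lower on 4 of 5 chips (-2.76, SE 1.98).

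In the opposite direction, Arhgap11a, a GTPase-activating protein, was 92.9, 20.6, 157, 46.4 and 13.7 CPM in members of those chips and at most 1.71 CPM in Lhx6-positive neurons. The groups did not overlap (6.80, SE 2.15, unadjusted edgeR p = 0.0103). Arhgap11a was named for its small p-value. The share of all tested genes without overlap, as seen for Npy and Arhgap11a, was not counted. By cells Arhgap11a was at 20 CPM or above in 16.4% of members and 3.92% of Lhx6-positive neurons over both ages. Ttbk2, a tau tubulin kinase, had 202, 68.3, 133, 275 and 39.0 CPM in members against at most 75.3 CPM, higher on 5 of 5 chips (5.55, SE 2.12). The adjusted p of each gene named in this comparison was 1.

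Members at E14.5 and E12.5 were compared over 4 and 5 chips with 51 cells. On counts simulated for this comparison, edgeR recovered 0% of log2 changes of 2 or 4. With edgeR 0 of 5769 genes passed, or 0%, while 257 had an unadjusted p under 0.05, or 4.45%, and the smallest adjusted p was 0.63. limma called 0 and DESeq2 called 121, or 2.37%, with 3 higher (0.0587%) and 118 lower (2.31%) at E14.5. CGE lineage genes had 2 of 6 tested above 0 (median log2 difference -0.98), and cell cycle genes 4 of 16 (-2.09), beside 47.0% of all genes and a median of -0.16. Scaling by DESeq2's size factors moved that overall median to 0.10 and the share above 0 to 51.8%. Nr2f1 averaged 264 ± 220 CPM (SD, n = 4) at E14.5 and 833 ± 572 CPM (SD, n = 5) at E12.5. The fitted log2 difference for Nr2f1 was -1.01 (SE 1.26, unadjusted edgeR p = 0.433, adjusted p = 0.999). It was at 20 CPM or above in 68.8% of E14.5 members and 87.2% of E12.5 members.

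Genes of the cell cycle list differed in direction between the ages. Cdk1 was found in 48.7% of E12.5 members and 2 of 16 E14.5 members, and at least 3 of the 20 cycle genes in 76.9 and 50% (24.6 to 75.3%). Cdca8, which encodes the mitotic protein borealin, is not on that list and was named for its small p-value. It was 50.7, 210, 70.7, 833 and 140 CPM on the E12.5 chips 175, 179, 182, 186 and 187. On the E14.5 chips it was at most 0.318 CPM, with no overlap (log2 difference -10.62, SE 2.87, unadjusted edgeR p = 0.000989). Cenpe, a kinesin of the kinetochore that is on the list, ran the other way and was singled out after its values were seen. It had 497 ± 852 CPM (SD, n = 4) at E14.5 and 52.8 ± 56.0 CPM (SD, n = 5) at E12.5. Its fitted log2 difference was 4.19 (SE 1.98, unadjusted edgeR p = 0.044, adjusted p = 0.999), and the ranges overlapped. Pcna (1.48, SE 1.98), Mcm6 (1.26, SE 2.41) and Hmgb2 (1.14, SE 1.68) were above 0 too. Gap43, a growth cone protein, was found in 76.9% of E12.5 members and 37.5% of E14.5 members.

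Calb1, the calcium-binding protein calbindin, was 0, 154, 201, 499 and 536 CPM on the same E12.5 chips and at most 1.28 CPM at E14.5, so that chip 175 alone lay within the E14.5 range (-8.06, SE 2.78, unadjusted edgeR p = 0.00745). Nap1l5, an imprinted relative of nucleosome assembly proteins, was 440.5, 78.5, 100.4, 250 and 40.1 CPM at E12.5 and 0 on all 4 E14.5 chips. Flna, the actin cross-linker filamin A, averaged 202 ± 219 CPM (SD, n = 5) and at most 0.390 CPM. In the opposite direction Med13, a subunit of the Mediator kinase module, was 119, 297, 5312 and 94.3 CPM on the E14.5 chips 161, 162, 189-2 and 190-2 and at most 63.6 CPM at E12.5, with no overlap (6.85, SE 1.87, unadjusted edgeR p = 0.00113). Zfp354c, a zinc-finger gene, was 592, 1053, 2453 and 0 CPM on the same E14.5 chips and at most 82.6 CPM at E12.5. With 3 or 4 members behind each E14.5 sum, a gene missing from those cells gave a sum of 0. Cdca8, Nap1l5, Flna and Med13 were named for their small p-values. The share of all tested genes without overlap between ages was not counted, so their lack of overlap cannot be set beside it.

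**Figure D5:**
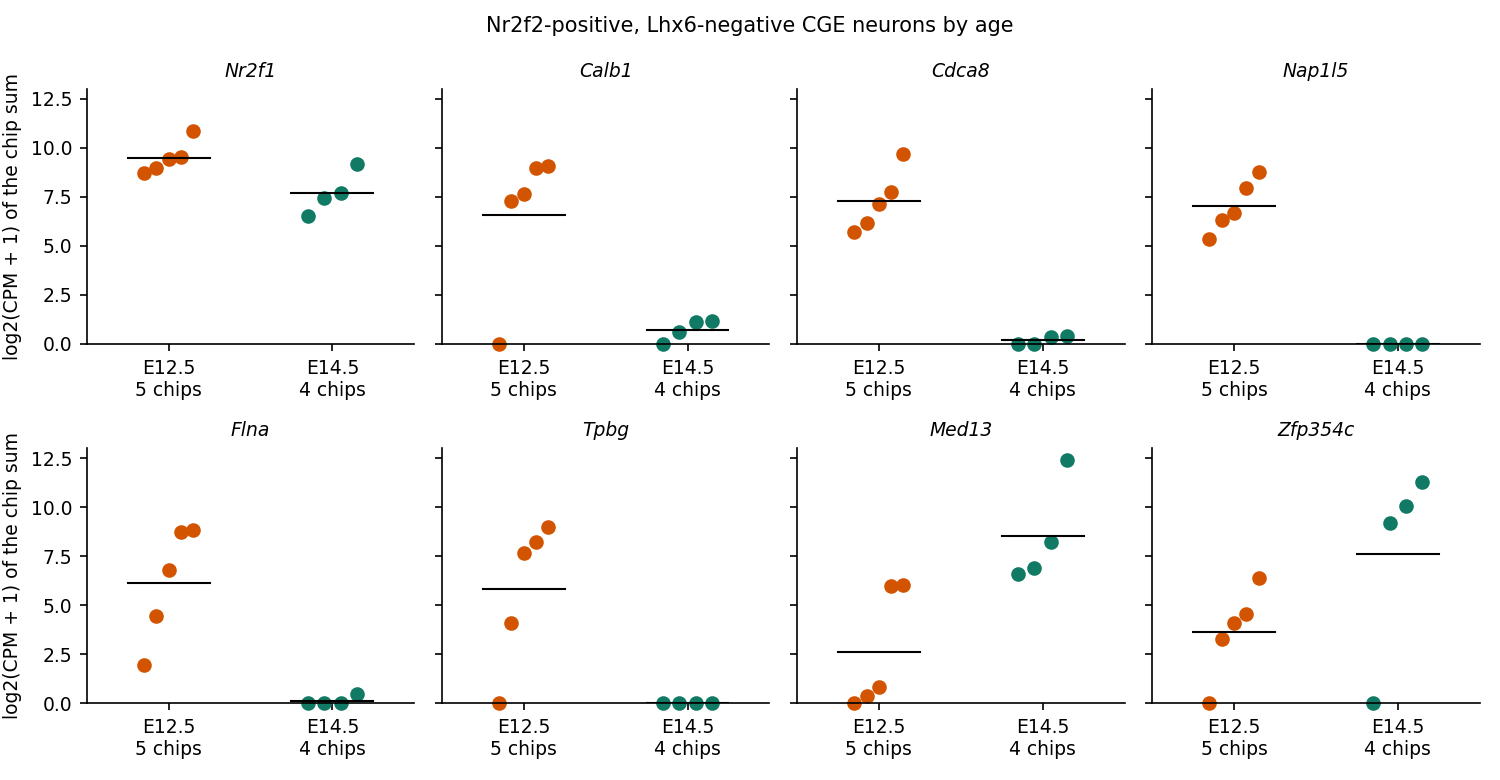
Level of 8 genes in Nr2f2-positive Lhx6-negative CGE neurons, as log2(CPM + 1) of the summed counts of each chip, at E12.5 (5 chips) and E14.5 (4 chips). Points are chips and lines are means. Cdca8, Nap1l5, Flna and Med13, which were named for small p-values, do not overlap between ages, and Nr2f1 does.

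Whether members differed from other neurons in another way at E14.5 than at E12.5 was tested with an interaction of class and age on the 8 paired chips. With edgeR 0 of 5821 genes passed, or 0%, and 203 had an unadjusted p under 0.05, or 3.49%. On counts simulated for the interaction, edgeR recovered 0% of log2 changes of 2 or 4. limma called 0 and DESeq2 called 304, or 5.22%, with 22 positive (0.378%) and 282 negative (4.84%), and the median over all genes was -1.52. Sp8 was among the genes with small p-values. On the E12.5 chips 175, 182, 186 and 187 it was 487, 8.50, 60.5 and 69.8 CPM in members and 0.239, 0.504, 0.784 and 15.4 CPM in other neurons, higher in members on 4 of 4. On the E14.5 chips 161, 162, 189-2 and 190-2 it was 0, 146, 0 and 0.775 CPM in members and 3.86, 45.2, 4.80 and 247.5 CPM in other neurons, higher on 1 of 4 (interaction -11.80, SE 4.74, unadjusted edgeR p = 0.0235, adjusted p = 0.999). Uchl5, a deubiquitinase of the proteasome, had an interaction of -13.26 (SE 3.53).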

How the data were processed

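Single-cell RNA was measured in dissected CGE, dMGE and vMGE of CD1 embryos. The authors deposited raw read counts per gene and cell. Per the submitters' processing notes, STAR 2.4.0, HTSeq 0.6.1, CASAVA, FastQC and SAMtools were used with the mm9 build; annotation and strand settings are not given in the sources used here, so overlapping and antisense genes cannot be told apart. No molecular identifiers were used, so counts include PCR copies. A deposited table of normalised values was not used here. Of 37310 genes in the count table, 32620 matched an identifier in the reference gene names; coordinates of that build were not used here.

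Groups came from the labels' region and age, chips from the sample titles. Cells were filtered, sorted by CPM thresholds and summed per chip and class. Sums of members held 2564205 to 14347033 counts on the 9 chips used, and sums of other neurons at least 3826637. Tests used edgeR 4.0.16 (TMM, filterByExpr, quasi-likelihood), with DESeq2 1.42.0 and limma 3.58.1 (pseudocount 1 or 10) as alternatives in R 4.3.3; shares used exact permutation tests in scipy 1.17.1. At least 3 cells per class and chip were required in place of the planned 5, because a minimum of 5 left 2 chips for the comparisons with all other and with Nr2f2-low Lhx6-low neurons and could not be fitted for the rest. The members and gene lists were chosen with earlier results of these data known. Genes named per comparison were those called, filled up to 8 per direction with the smallest unadjusted p at a mean of at least 20 CPM, and tested CGE, MGE and striatal lineage genes; predicted genes were left out, and of these the text gives examples. Cdk1 and genes given only by shares of cells, were chosen after their values were seen. Scripts were tested on simulated data drawn at the spread of these sums, where edgeR called no unchanged gene. It recovered 0% of log2 changes of 2 in every comparison. Of changes of 4 it recovered 3.90, 1.47, 2.41, 0 and 0% against all other, Nr2f2-low Lhx6-low and Lhx6-positive neurons, by age and for the interaction. DESeq2 recovered 57.1, 57.4, 54.2, 15.1 and 17.0% of changes of 4 in the same order. It also called 170, 166, 159, 71 and 187 unchanged genes. Alternatives covered scaling, low-count filter, test, block, cell filters, thresholds, thinning, richest cells, cells with Xist and Y-linked counts, single ages and each chip left out. The alternatives without cells with Xist and Y-linked counts, with single ages and with chips of at least 1 neuron were chosen after seeing the data. Some genes are not reported here.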

Additional observations from a re-analysis of the deposited data

Results flagged for a closer look

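A gap test checked 24 groups of chips for a chip standing apart (the members' sums of 11 genes and their share of neurons, each at 2 ages). In 10 groups there was such a chip. The limits of the test are met in about 1 in 20 groups only where values are normally distributed. Sums of a few cells, often held by a single cell, need not be, so the 10 groups are a description and are not set against chance. Each value is given with the part of the counts that came from a single cell. Nr2f1 was 1829 CPM on the E12.5 chip 175 with the other 4 chips at 422 to 733 CPM, and 77.1% of it came from 1 cell. On the same chip Sp8 was 487 CPM (others 0 to 69.8 CPM, 62.3% from 1 cell) and Npas3 was 432 CPM (others 46.2 to 65.4 CPM, 64.1%). Isl1 was 1347 CPM on the E12.5 chip 186, others 32.4 to 413 CPM, with 99.95% from 1 cell. Gad2 was low on the E12.5 chip 179 at 266 CPM, others 1010 to 1304 CPM, with 64.7% from 1 cell. Npy was 8.98 CPM on the E12.5 chip 182 (others up to 0.357 CPM, 99.1% from 1 cell).

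At E14.5, Prox1 was 313 CPM on chip 162 with the other 3 chips at 0, and 98.2% came from 1 cell. Sp8 on that chip was 146 CPM, others up to 0.775 CPM, all from 1 cell. On chip 161, Npy was 16.8 CPM (others up to 0.320 CPM, 95.3% from 1 cell) and Cdk1 was 192 CPM (others up to 0.318 CPM, 68.3%).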

How the results depend on the processing

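Counts of genes passing were 0 with edgeR and with limma in nearly every alternative. DESeq2's Wald test called 175, 173, 247, 121 and 304 genes against all other neurons, Nr2f2-low Lhx6-low neurons and Lhx6-positive neurons, by age and for the interaction. On simulated counts it called 170, 166, 159, 71 and 187 unchanged genes in the same order. With no filter on low counts, 2 genes passed against Lhx6-positive neurons and 13 by age. E12.5 chips alone gave 2 against Lhx6-positive neurons, and a threshold of 50 CPM on Nr2f2 gave 6 by age. Leaving out a chip gave 0 in 37 of 38 fits, and by age 0 to 2, with 2 without chip 190-2. Without the replicate block, 0 genes passed in each class comparison; chip numbers are unique to a group and pair no chips across groups. The share by age was -26.6 points (p = 0.1) with the stricter cell filter, and -20.8 to -29.3 without each chip. The CGE excess over the MGE was 42.3 to 50.8 points without each chip. The difference in detected genes was 68.5 to 147.6 without each chip and 106.6 thinned.

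Of 828 alternative values of 41 single-gene results, 784 kept direction and call, 29 passed the threshold (25 with DESeq2) and 15 reversed, in 5 genes against all other neurons. Prox1 was -0.22 with Nr2f2 at 50 CPM, -1.56 with Lhx6 at 0, -0.036 in E12.5 chips alone, -0.02 without chip 162 and -0.16 without chip 187 (up to 2.01 without chip 186). Sp8 was -0.41 with Nr2f2 at 50 CPM and -6.45 in E14.5 chips alone. Meis2 was -0.50 with the stricter cell filter, -0.20 with Nr2f2 at 50 CPM, -0.071 in E14.5 chips alone and -0.18 without chip 186 (up to 0.53 without chip 190-2). Isl1 was -0.60 without cells holding Xist and Y-linked counts and -1.96 in E14.5 chips alone. Cdk1 was -0.14 without chip 186 and -0.13 without chip 187 (up to 1.34 without chip 189-2). The cause was not tested. A share of 0 of 55 cells was given an upper bound of 5.45%. That bound is 3 divided by the number of cells, not an exact interval, and does not cover limits of depth. Fits at 5 or 8 cells per class could not be made for most comparisons, nor a gene fit of CGE against MGE members.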
